A study of Mus musculus with 6 samples.

Results

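The genes described here are 8 transcription factors that set gut and pancreas duct identity: Gata6, Hnf4a, Foxa1, Foxa2, Sox9, Klf5, Elf3 and Ehf. They were taken by gene symbol, and all 8 of the 8 were found among the 10616 genes of the raw count table. They were followed in KPC cells, a cultured line from a mouse pancreatic ductal adenocarcinoma. Both groups are the same line infected with a pLKO.1 lentivirus and selected with puromycin. The KPC-shBrca2 cells carry a short hairpin RNA against Brca2 (3 libraries), and the KPC-shControl cells carry a non-targeting hairpin (3 libraries). Live cells that excluded propidium iodide were sorted, and poly(A) RNA was read at its 3' end by a variation of MARS-seq. The comparison rests on 1 line, and the sources used here do not state how many hairpins or clones were used. A legend of the study names mice as the unit of replication for these cultured cells, while the labels name neither animals nor cultures, so what separates the replicates is unclear. The p-values therefore measure the spread between these libraries, which may be technical.

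Endoderm gives rise to stomach, intestine, liver and pancreas, and its identity is held by a small set of DNA-binding proteins that act together. FOXA proteins bind closed chromatin and open it, GATA6 and HNF4A act on enhancers of gut, liver and pancreas genes, and SOX9 marks pancreatic progenitors and adult duct cells. KLF5 and the ETS family members ELF3 and EHF work in epithelia that line the gut and ducts. In pancreatic cancer, GATA6, HNF4A and FOXA factors are known as marks of the better differentiated, classical type of tumor.

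The libraries held between 1519340 and 2452467 counts in total. Brca2, the targeted gene, had 10, 11 and 14 raw counts in the KPC-shBrca2 libraries and 33, 52 and 33 in the KPC-shControl libraries, so the libraries followed their labels (log2 fold change -1.61 ± 0.44 SE, adjusted p = 0.029 by DESeq2). Which library stood apart depended on the measure. On the leading axis of a principal component analysis, which took 41.1% of the variance in log2 values, KPC-shControl replicate 3 scored 0.74, while the other 5 libraries lay between -0.43 and 0.26. By the chi-square per degree of freedom between the counts of library pairs, KPC-shControl replicates 2 and 3 were the closest of all pairs (4.65), and KPC-shBrca2 replicate 3 was the farthest from the KPC-shControl libraries (9.81 to 12.6). Results that rest on either library are given with and without it. Of 11 duct markers, 9 were in the table, and the duct keratins Krt8, Krt18 and Krt19 had base means of 2909, 9184 and 4227, a base mean being the mean normalized count over the 6 libraries. Epcam, a surface marker of epithelia, had a base mean of only 6.52, and the duct markers Cftr and Cldn4 were not in the table.

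Of the 8 lineage factors, 1 was called between the groups and 7 were not. Sox9 was higher in KPC-shBrca2 cells. A gene was called when its adjusted p by the DESeq2 likelihood ratio test was under 0.1, its absolute log2 fold change was over 0.5 and its base mean was over 5. By this rule 0.770% of the 9997 genes with an adjusted p were called higher and 1.27% were called in either direction. Among the lineage factors 7 had an adjusted p, and Ehf, at a base mean of 2.74, fell under the filter on low counts. The median log2 fold change of the 8 factors was 0.23, with 6 above 0 and 2 below, against a median of -0.0003 over all 10616 genes. This median and the 6 above 0 include Ehf, whose counts were too few for its direction to be read. The factors were chosen with earlier results of these data known, so these counts and this median are not independent evidence of a direction. An unadjusted p under 0.05 was found for 2 of the factors, Sox9 and Hnf4a, and for 8.66% of the genes tested. In these 2 factors every KPC-shBrca2 library lay above every KPC-shControl library, which held for 10.2% of the genes tested, while groups without overlap in either direction were found for 20.6%.

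**Figure D1:**
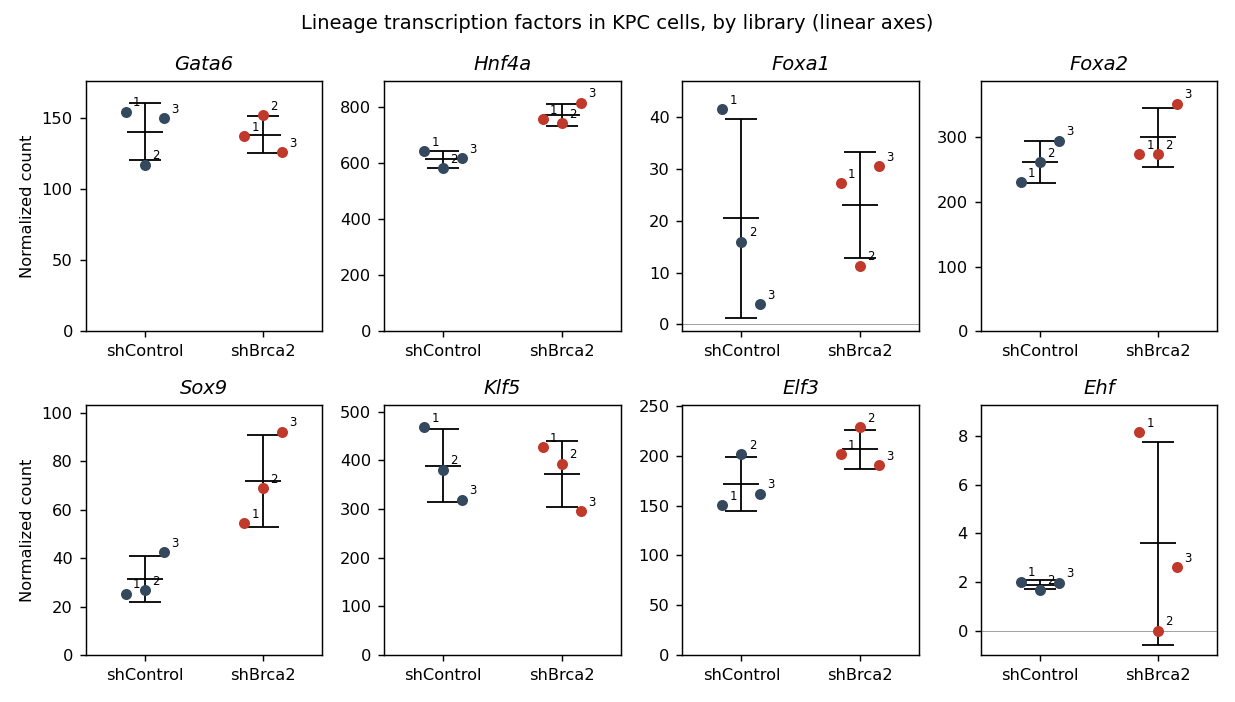
Normalized count (linear axis) of each of the 8 lineage factors in the 3 KPC-shControl and the 3 KPC-shBrca2 libraries, with points numbered by replicate, the group mean as a long dash and the SD as an error bar. Sox9 and Hnf4a are the 2 panels in which the groups do not overlap, and Foxa1 shows a KPC-shControl range from 3.96 to 41.4.

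Sox9, the SRY-box factor of duct and progenitor cells, lies on chromosome 11 (112782210 to 112787757 on GRCm38.p6). Its normalized counts were 54.5, 69.0 and 92.2 in the KPC-shBrca2 libraries and 25.3, 26.8 and 42.5 in the KPC-shControl libraries. Every KPC-shBrca2 library lay above every KPC-shControl library, and the closest pair was KPC-shBrca2 replicate 1 and KPC-shControl replicate 3. The mean was 71.9 ± 19.0 (SD, n = 3) against 31.5 ± 9.54 (SD, n = 3), a 2.30-fold difference with a 95% interval from 1.46 to 3.63. The log2 fold change was 1.20 ± 0.34 (SE), at an adjusted p of 0.039 by DESeq2, and edgeR's quasi-likelihood test, which called 1.33% of the genes it tested, also called Sox9 with an adjusted p of 0.082. Sox9 ranked 52 by p among the genes with a positive log2 fold change.

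The Sox9 call depended on which libraries were used, while its direction did not. When 1 library was left out at a time, the log2 fold change stayed between 0.98 and 1.47. The adjusted p by DESeq2 rose to 0.151 without KPC-shBrca2 replicate 2, 0.64 without KPC-shBrca2 replicate 3, 0.187 without KPC-shControl replicate 1 and 0.462 without KPC-shControl replicate 2. The call was kept without KPC-shBrca2 replicate 1 (adjusted p = 0.047 by DESeq2) and without KPC-shControl replicate 3 (adjusted p = 0.023 by DESeq2). Its raw counts ran from 25 to 106, so counting error alone was wide. The exact Poisson 95% interval of the lowest KPC-shBrca2 library, 40 counts, was 28.6 to 54.5, and that of the highest KPC-shControl library, 43 counts, was 31.1 to 57.9. These 2 libraries differed in depth. Scaled as the normalized counts are, the intervals were 38.9 to 74.2 around 54.5 and 30.8 to 57.3 around 42.5, and they still overlapped. Such intervals cover counting error only. Sox9 overlaps the noncoding gene BC006965 on the opposite strand, and reads of the pair cannot be told apart because the sources do not say whether strand was used.

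Genes that ran in parallel with Sox9 were found by the mean absolute difference of log2 normalized counts, each gene centred on its own mean, over the 6 libraries. Among 7796 genes with a base mean of at least 20, the nearest was Pts, an enzyme of tetrahydrobiopterin synthesis, at a mean difference of 0.11 on the log2 scale. Fbp2, a fructose-bisphosphatase, followed at 0.12, and Rnase4, a secreted ribonuclease, at 0.16. Fbp2 had 174, 211 and 288 normalized counts in KPC-shBrca2 and 93.97, 104 and 131 in KPC-shControl, and it was called (log2 fold change 1.04, adjusted p = 0.00284 by DESeq2). Rnase4 was called as well (log2 fold change 1.12, adjusted p = 1.89e-05 by DESeq2). Pts, with a log2 fold change of 0.97, had an adjusted p of 0.269 by DESeq2 and was not called. Its groups overlapped, with 42.2 in KPC-shBrca2 replicate 1 and 42.5 in KPC-shControl replicate 3. These genes were picked for their likeness to Sox9, so their direction and calls follow in part from that choice.

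Hnf4a, the nuclear receptor that drives enterocyte and hepatocyte genes, lies on chromosome 2 (163506811 to 163572907 on GRCm38.p6). It had 757, 743 and 815 normalized counts in the KPC-shBrca2 libraries and 642, 582 and 617 in the KPC-shControl libraries. The groups were apart, and libraries within a group lay close together, with the highest of a group at most 1.10 times its lowest. The mean was 772 ± 38.3 (SD, n = 3) against 614 ± 29.96 (SD, n = 3), a 1.26-fold difference with a 95% interval from 1.04 to 1.53. The log2 fold change of 0.33 ± 0.14 (SE) was under the minimum of 0.5, and the adjusted p was 0.422 by DESeq2 and 0.231 by edgeR's quasi-likelihood test, so Hnf4a was not called. Leaving out each library in turn kept its log2 fold change between 0.29 and 0.36. It overlaps Hnf4aos, a noncoding gene on the opposite strand, and the small RNA gene Gm25881 on the same strand.

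Hnf4a has alternative start sites, of which the upstream one is known from pancreas and gut and the downstream one from liver and gut, and a 3' end count does not separate their transcripts. The 250 bases before each of its RefSeq starts are shown because the groups of Hnf4a did not overlap, with capitals marking a match to one of the motif words given below. The first is at chr2:163506607-163506856 and the second at chr2:163546905-163547154, both on the plus strand of GRCm38.p6, and the first window runs into the start of the span given for the gene above.
Hnf4a upstream start: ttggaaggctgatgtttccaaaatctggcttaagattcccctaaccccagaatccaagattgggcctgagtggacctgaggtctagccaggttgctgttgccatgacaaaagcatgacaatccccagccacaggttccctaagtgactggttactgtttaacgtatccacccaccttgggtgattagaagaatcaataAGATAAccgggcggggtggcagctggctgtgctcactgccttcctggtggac
Hnf4a downstream start: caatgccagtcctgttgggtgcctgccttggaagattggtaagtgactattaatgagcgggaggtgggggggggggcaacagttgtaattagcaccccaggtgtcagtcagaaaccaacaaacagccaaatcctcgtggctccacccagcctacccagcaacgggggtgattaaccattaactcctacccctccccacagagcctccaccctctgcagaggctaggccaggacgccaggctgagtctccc

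The words searched, on both strands and with overlaps allowed, were CAAAGTCC for HNF4 factors, TGTTTAC and its variant form TATTTAC for FOXA factors, AGATAA and its variant form TGATAA for GATA factors, ACAATGG and its variant form ACAAAGG for SOX factors, GGGNGTGG for KLF factors, and for ETS factors CCGGAAG as well as the alternative word AGGAAGT. Of 32851 such windows before the starts of 27025 genes, 1.20% held the HNF4 word, 5.76% a FOXA word, 16.6% a GATA word, 7.92% a SOX word, 15.9% the KLF word and 14.1% an ETS word. The upstream window of Hnf4a held the GATA word AGATAA, from 52 to 47 bases before the start. The downstream window held none of these letters, which says nothing of the factors themselves. RefSeq windows were matched for Hnf4a, Foxa1, Foxa2 and Elf3, that is 4 of the 8 factors, and not for Gata6, Sox9, Klf5 and Ehf.

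Foxa1 and Foxa2 are paralogous forkhead factors of early endoderm, on chromosome 12 (57540628 to 57548029) and chromosome 2 (148042877 to 148046969). Foxa2 had 274, 274 and 352 normalized counts in KPC-shBrca2 and 230, 262 and 295 in KPC-shControl. Its groups overlapped, since KPC-shControl replicate 3 lay above 2 of the KPC-shBrca2 libraries. The log2 fold change of Foxa2 was 0.20 ± 0.19 (SE), at an adjusted p of 0.879 by DESeq2, and the 95% interval of the fold ran from 0.89 to 1.48.

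Foxa1 varied far more between libraries than between groups. Its normalized counts were 27.2, 11.3 and 30.5 in KPC-shBrca2 and 41.4, 15.9 and 3.96 in KPC-shControl, so the highest and the lowest library were both KPC-shControl. The highest was 10.5 times the lowest, and the log2 range of Foxa1 ranked 78 among 8980 genes with a base mean of at least 10. If counts are separate molecules, which is not known, counting error did not span this range. The raw counts of 41 and 4 had exact Poisson 95% intervals of 29.4 to 55.6 and 1.09 to 10.2. The mean was 23.0 ± 10.2 (SD, n = 3) in KPC-shBrca2 and 20.4 ± 19.1 (SD, n = 3) in KPC-shControl, with an adjusted p of 0.986 by DESeq2. The 95% interval of the fold, 0.497 to 2.55, includes both a halving and a doubling. Without KPC-shControl replicate 3 the log2 fold change moved from 0.17 to -0.31, without KPC-shBrca2 replicate 3 to -0.094 and without KPC-shControl replicate 1 to 1.18, none of them called.

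The libraries high in Foxa1, KPC-shBrca2 replicates 1 and 3 and KPC-shControl replicate 1, were those with scores under 0 on the first principal component (-0.42, -0.43 and -0.18). The lowest library, KPC-shControl replicate 3, had the highest score. What part the difference between these libraries had in the Foxa1 values was not tested. The genes nearest to Foxa1, looked up after its values were seen since 1 library had fewer than 10 counts, were Tm9sf2, a membrane protein, Usp33, a deubiquitinase, and Zranb2, a zinc finger protein of splicing, at mean differences of 0.16, 0.18 and 0.19 on the log2 scale. Tm9sf2 had 36.6 normalized counts in KPC-shControl replicate 3 and 208 in KPC-shControl replicate 1. None of the 3 was called, with adjusted p-values between 0.907 and 0.965 by DESeq2.

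**Figure D2:**
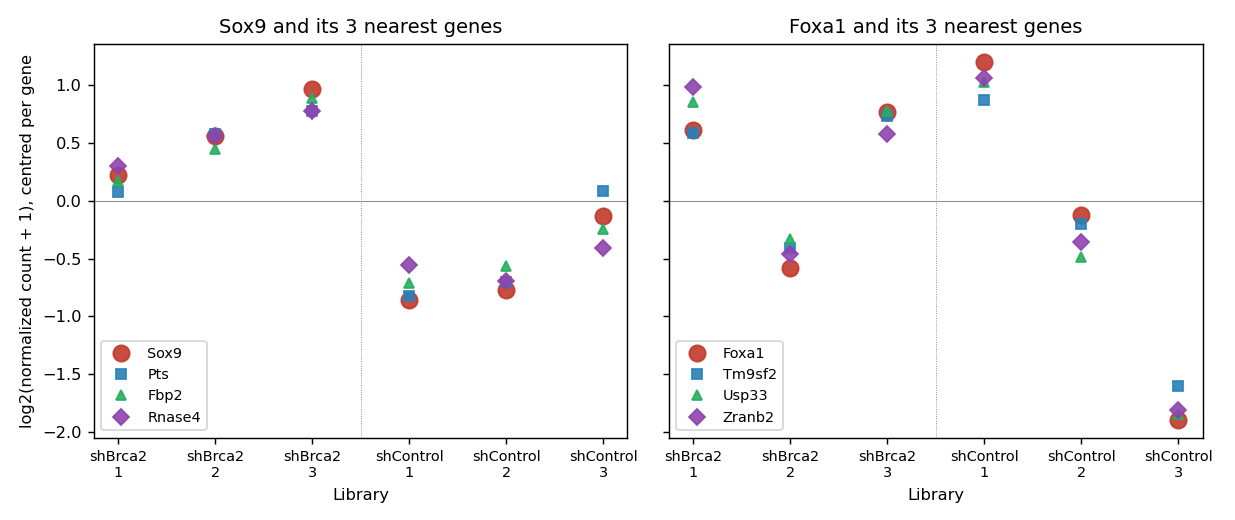
log2(normalized count + 1), centred on each gene's mean, in the 6 libraries (x axis) for Sox9 and its 3 nearest genes (left) and Foxa1 and its 3 nearest genes (right), with a dotted line between the groups. The neighbors were picked for likeness over these same libraries. Sox9 and its neighbors are above their means in the 3 KPC-shBrca2 libraries, and Pts is also above its mean in KPC-shControl replicate 3. Foxa1 and its neighbors are lowest in KPC-shControl replicate 3.

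The window before the Foxa1 start in the RefSeq promoter table, at chr12:57546112-57546361 on the minus strand of GRCm38.p6, lies inside the span given for the gene above, so it precedes an internal start and not the outermost one. It is shown because Foxa1 was the most variable factor above a base mean of 10. It held a FOXA word on the opposite strand, from 141 to 135 bases before the start (capitals).
Foxa1: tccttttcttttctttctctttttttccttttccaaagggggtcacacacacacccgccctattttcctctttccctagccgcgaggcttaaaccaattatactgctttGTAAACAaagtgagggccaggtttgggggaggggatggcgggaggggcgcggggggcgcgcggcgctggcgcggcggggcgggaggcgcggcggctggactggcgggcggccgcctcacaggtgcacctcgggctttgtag

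Gata6, the zinc finger factor tied to the classical tumor type, was level between the groups. It lies on chromosome 18 (11052510 to 11085636 on GRCm38.p6). Its normalized counts were 138, 152 and 126 in KPC-shBrca2 and 155, 117 and 150 in KPC-shControl, and the groups overlapped throughout. The means of 139 ± 13.0 and 141 ± 20.3 (SD, n = 3 each) gave a log2 fold change of -0.02 ± 0.22 (SE), at an adjusted p of 0.989 by DESeq2. The fold lay within a 95% interval of 0.736 to 1.32, so a doubling or halving of Gata6 falls outside it. Gata6 overlaps Gata6os, a noncoding gene on the opposite strand.

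Klf5, a zinc finger factor of proliferating gut epithelium, lies on chromosome 14 (99298691 to 99313412). It had 428, 393 and 296 normalized counts in KPC-shBrca2 and 468, 381 and 319 in KPC-shControl. Each group covered much the same range, the log2 fold change was -0.07 ± 0.20 (SE), and the adjusted p was 0.983 by DESeq2. The fold had a 95% interval from 0.731 to 1.25.

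Elf3 and Ehf are ETS factors of simple epithelia. Elf3, on chromosome 1 (135253574 to 135258472), had 202, 229 and 191 normalized counts in KPC-shBrca2 and 151, 202 and 162 in KPC-shControl. The groups overlapped through KPC-shControl replicate 2, and the log2 fold change of 0.27 ± 0.20 (SE) had an adjusted p of 0.816 by DESeq2. The noncoding gene Gm26642 overlaps Elf3 on the opposite strand. Ehf, on chromosome 2 (103263431 to 103303275), was near absent in both groups. It had 6, 0 and 3 raw counts in the KPC-shBrca2 libraries and 2, 2 and 2 in the KPC-shControl libraries, so 5 of the 6 values were at or under a floor of 3 counts. No difference in Ehf was detectable at this depth, and no fold is given.

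The 5 factors with the steadiest levels were thus Gata6, Hnf4a, Foxa2, Klf5 and Elf3, in which the highest of the 6 libraries was between 1.32 and 1.58 times the lowest. Sox9 spanned 3.65 times and Foxa1 10.5 times. These ratios compare libraries within a gene, and a 3' end count is not divided by transcript length.

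The wider network of factors was then examined to ask whether relatives and partners moved with the 8. Of 26 other endoderm and pancreas factors, 12 were in the table. DESeq2 and edgeR called 0 of these 12, beside 1.27% and 1.33% of the genes each tested. An unadjusted p under 0.05 was found for 2 of the 12, beside 8.66% of the genes tested. The median log2 fold change was 0.055, with 6 above 0 and 6 below. The 2 were Nr1h4, the bile acid receptor, and Hhex, a homeobox factor of early liver and pancreas. Nr1h4 had 58.6, 47.3 and 46.99 normalized counts in KPC-shBrca2 and 30.3, 24.3 and 27.7 in KPC-shControl. Its groups were apart, with a 1.85-fold difference (log2 fold change 0.89 ± 0.34 SE) at an adjusted p of 0.294 by DESeq2. Hhex had a log2 fold change of 0.51 ± 0.22 (SE), for which DESeq2 gave an adjusted p of 0.397, and KPC-shControl replicate 1, at 275, lay above 2 of the KPC-shBrca2 libraries, at 271 and 273. DESeq2 called Hhex higher when that library was left out.

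Some of these factors are close paralogs or partners of the 8 and are named for their roles, after their values were seen. Pdx1, the homeobox factor of the early pancreas, had means of 207 ± 14.8 in KPC-shBrca2 and 161 ± 23.7 in KPC-shControl (SD, n = 3 each), with an adjusted p of 0.635 by DESeq2. The GATA6 relatives Gata4 and Gata5 had log2 fold changes of -0.27 ± 0.37 and -0.11 ± 0.32 (SE), and Foxa3, the third FOXA gene, had -0.72 ± 0.49 (SE). Cdx2, the intestinal homeobox factor, was expressed at a base mean of 139.5 with a log2 fold change of 0.25 ± 0.22 (SE). None of these 5 was called, and their adjusted p-values by DESeq2 ran from 0.635 to 0.984. Foxa3 had 15.0, 14.2 and 9.57 normalized counts in KPC-shBrca2 and 21.2, 20.1 and 21.8 in KPC-shControl, so its groups did not overlap. Of the 12 factors, groups without overlap were higher in KPC-shBrca2 for 2, Nr1h4 and Pdx1, and lower for 1, Foxa3. Over all genes tested the share without overlap in either direction was 20.6%.

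Among 59 relatives from the GATA, SOX, KLF and ETS families, 26 were in the table. DESeq2 called 0 of them and edgeR called 1, Klf2, beside 1.27% and 1.33% of the genes each tested. An unadjusted p under 0.05 was found for 3, beside 8.66% of the genes tested. The median log2 fold change was 0.03, with 15 above 0 and 11 below. Klf2, known as a flow-responsive factor of endothelium, had 27.2, 24.6 and 26.98 normalized counts in KPC-shBrca2 and 11.1, 10.9 and 12.9 in KPC-shControl. The groups were far apart relative to their spread, with a 2.26-fold difference (log2 fold change 1.18 ± 0.47 SE), yet the adjusted p was 0.337 by DESeq2. Klf9, a KLF factor induced by steroid and thyroid hormones, had a log2 fold change of 0.68 ± 0.28 (SE), for which DESeq2 gave an adjusted p of 0.347. Erf, an ETS factor and the last of the 3, ran the other way (log2 fold change -0.53, adjusted p = 0.437 by DESeq2). Its KPC-shBrca2 libraries all lay below its KPC-shControl libraries. Groups without overlap were higher in KPC-shBrca2 for 3 of the 26 and lower for 2, beside 20.6% of the genes tested in either direction. Klf4, a gut epithelial relative of Klf5, and Sox4, a relative of Sox9, had log2 fold changes of 0.23 ± 0.18 and -0.29 ± 0.28 (SE) and were not called. Of 8 other epithelial factors 3 were in the table, and only Tfcp2l1 had a base mean over 5 (log2 fold change -0.34 ± 0.41 SE, adjusted p = 0.92 by DESeq2). Tfcp2l1 was lower in KPC-shBrca2 without overlap, the only 1 of the 3 with groups apart. DESeq2 and edgeR called 0 of the 3, and 0 had an unadjusted p under 0.05, beside the same shares over all genes.

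**Figure D3:**
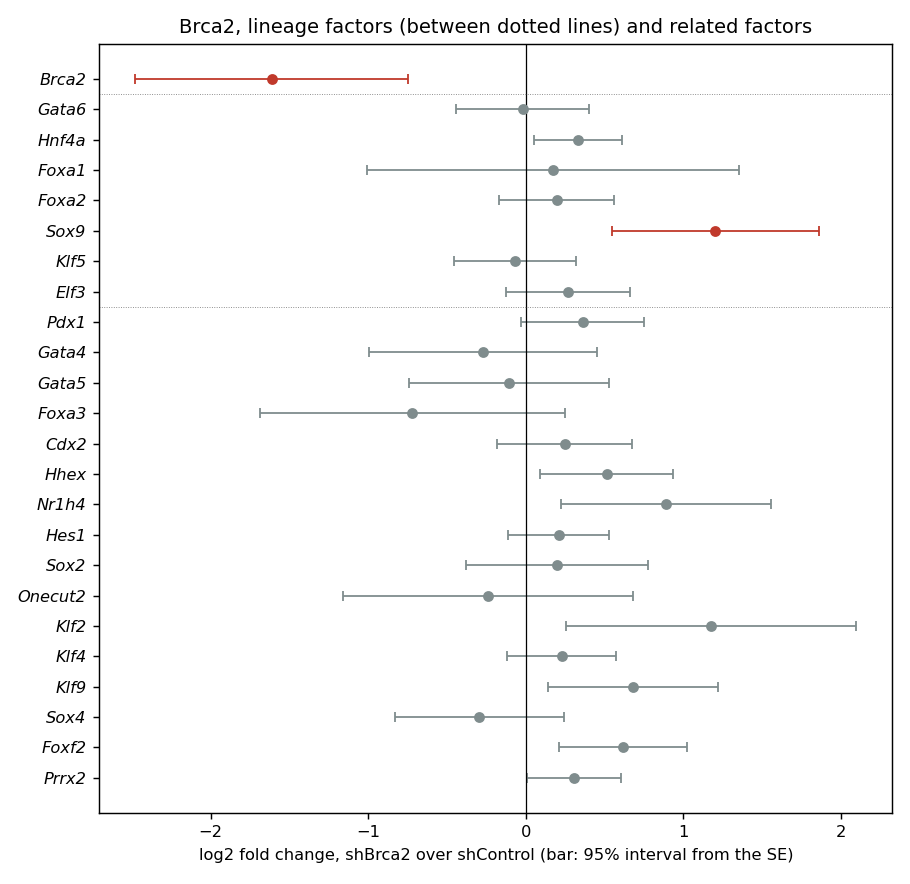
log2 fold change of KPC-shBrca2 over KPC-shControl (points) with its 95% interval from the SE (bars), for Brca2 at the top, 7 of the 8 lineage factors between the dotted lines (Ehf is left out for its low counts), and related factors below. Points in red were called by DESeq2, and Sox9 is the 1 called lineage factor, at 1.20.

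Genes typical of intestine and liver, many of them textbook targets of HNF4 and FOXA factors by background knowledge, were compared next. Of 22 such genes 10 were in the table, and all 10 had a log2 fold change above 0, with a median of 0.75 against -0.0003 over all genes. DESeq2 called 3 of the 9 with an adjusted p, all higher, beside a background of 0.770%. The normalized counts of 7 of the 10 were higher in KPC-shBrca2 without overlap, beside 10.2% of all genes tested. The groups overlapped for Apoa1, Pklr and Fabp2, which had log2 fold changes of 0.17, 0.10 and 0.098 and were not called. The list was set with the result for Fabp1 and other gut and liver genes known, so it is not independent evidence of its direction.

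**Figure D4:**
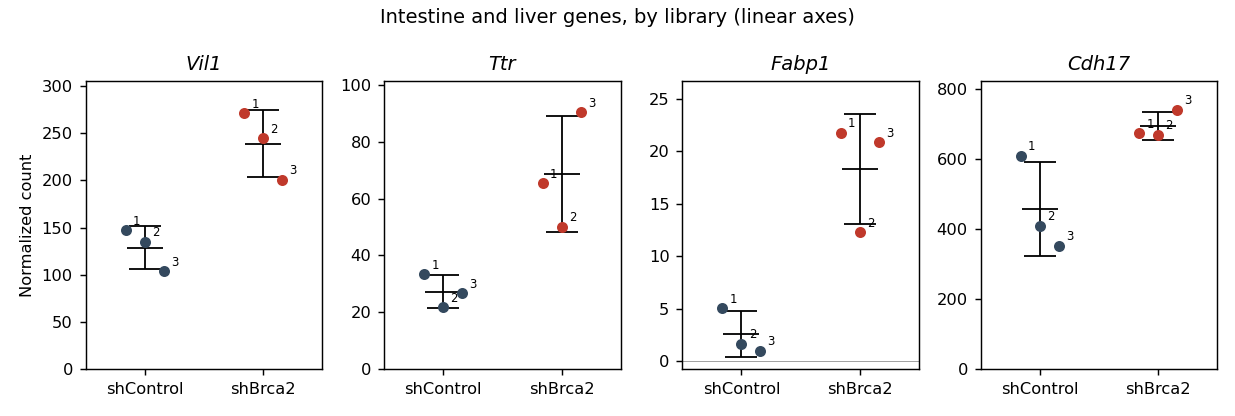
Normalized count (linear axis) of Vil1, Ttr, Fabp1 and Cdh17 in the 3 KPC-shControl and the 3 KPC-shBrca2 libraries, with points numbered by replicate, the group mean as a long dash and the SD as an error bar. Every KPC-shBrca2 library lies above every KPC-shControl library in the 4 panels, of which the first 3 show called genes.

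Vil1, which encodes the microvillus protein villin, had 271, 245 and 201 against 148, 135 and 104, a 1.85-fold difference with an adjusted p of 0.00693 by DESeq2. Ttr, the thyroid hormone carrier transthyretin, had 65.4, 50.1 and 90.5 against 33.3, 21.8 and 26.7, a 2.54-fold difference with an adjusted p of 0.017 by DESeq2.

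Fabp1, the liver fatty acid binding protein, had only 16, 13 and 24 raw counts in KPC-shBrca2 and 5, 2 and 1 in KPC-shControl, with an adjusted p of 0.0193 by DESeq2. Each of these 3 calls rested on certain libraries. Vil1 lost its call without KPC-shBrca2 replicate 1 (0.126) or KPC-shControl replicate 3 (0.103). Ttr lost it without KPC-shBrca2 replicate 3 (0.483) or KPC-shControl replicate 2 (0.327). Fabp1 lost it without KPC-shBrca2 replicate 3 (0.312), KPC-shControl replicate 2 (0.274) or KPC-shControl replicate 3 (0.142), all values being adjusted p-values by DESeq2, which gave it none without KPC-shBrca2 replicate 1 or 2. Fabp1 also had no adjusted p, and so no call, with all 6 libraries under TMM factors, total counts or a filter of 10 counts in 3 libraries. Vil1 overlaps Usp37 and Ttr overlaps Gm16090 on the opposite strand, and Ttr also overlaps Gm58847 on the same strand. Further brush border genes, named after their values were seen, were Cdh17, Cdhr2 and Cdhr5. Cdh17, the liver-intestine cadherin, had 673, 669 and 741 normalized counts against 609, 409 and 352, with a log2 fold change of 0.61 ± 0.20 (SE), for which DESeq2 gave an adjusted p of 0.129. Cdh17 was not called there or by edgeR, but DESeq2 called it under TMM factors, total counts and the filter of 10 counts in 3 libraries, and without KPC-shControl replicate 1. The microvillus protocadherins Cdhr2 and Cdhr5 had log2 fold changes of 0.56 ± 0.24 and 2.33 ± 0.87 (SE), the latter at a base mean of 6.59, and neither was called.

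The windows before the starts of Vil1 (chr1:74409134-74409383) and Fabp1 (chr6:71199629-71199878), both on the plus strand of GRCm38.p6, are shown as the called genes of this list for which a RefSeq window was matched. Capitals mark the same motif words.
Vil1: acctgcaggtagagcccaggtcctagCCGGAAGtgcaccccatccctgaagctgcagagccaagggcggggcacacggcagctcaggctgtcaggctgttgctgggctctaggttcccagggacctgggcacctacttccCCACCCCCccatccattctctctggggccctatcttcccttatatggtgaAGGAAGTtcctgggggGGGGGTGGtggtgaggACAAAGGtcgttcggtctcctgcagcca
Fabp1: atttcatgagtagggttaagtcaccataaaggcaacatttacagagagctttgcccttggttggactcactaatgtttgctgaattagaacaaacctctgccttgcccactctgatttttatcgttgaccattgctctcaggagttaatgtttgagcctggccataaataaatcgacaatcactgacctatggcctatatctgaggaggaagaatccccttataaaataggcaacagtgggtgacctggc

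The Vil1 window held an ETS word from 224 to 218 and another from 60 to 54 bases before the start, a KLF word from 110 to 103 and another from 44 to 37, and a SOX word from 28 to 22. The Fabp1 window held none of the words searched. A match is a description of the letters and not a bound site.

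Krt7, a duct keratin, was the 1 duct marker called by DESeq2, out of the 9 in the table, beside 1.27% of all genes tested. It had 383, 351 and 282 normalized counts in KPC-shBrca2 and 121, 156 and 161 in KPC-shControl, a 2.31-fold difference with an adjusted p of 2.07e-06 by DESeq2. Krt7 kept its call whichever library was left out, and it overlaps the noncoding gene Gm671 on the opposite strand. Krt19 and Krt18, other duct keratins, had log2 fold changes of -0.06 ± 0.14 and -0.12 ± 0.13 (SE). The median log2 fold change of the 9 duct markers was -0.17, with 2 above 0 and 7 below, and Spp1, the duct marker osteopontin, was called lower when KPC-shControl replicate 1 was left out.

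Few markers of other cells that a pancreas culture could hold were in the table. Of 10 fibroblast markers 2 were in the table, Col1a2 and Thy1, with summed normalized counts of 17.7 to 22.7 in KPC-shBrca2 and 13.8 to 42.4 in KPC-shControl. Acinar cells gave 2 of 12 markers, Cela1 and Prss2, with sums of 34.0 to 64.4 and 38.4 to 52.0. Cela1, an elastase gene, made up most of these sums, with 31.3, 56.7 and 58.3 normalized counts in KPC-shBrca2 and 32.3, 44.5 and 37.6 in KPC-shControl, well above the floor of 3 counts. Endocrine cells gave 0 of 10, and of 10 immune and endothelial markers only Cd68 was in the table (12.2 to 20.4 and 11.1 to 16.8). DESeq2 and edgeR called 0 of these 5 genes, beside 1.27% and 1.33% of the genes each tested. An unadjusted p under 0.05 was found for 0 of them, beside 8.66%.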

How the data were processed

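The authors deposited a table of raw counts with gene symbols as rows and the 6 libraries as columns, not normalized and not pooled. The submitters' processing notes name bcl2fastq, cutadapt, STAR 2.4.2a, HTSeq, DESeq2 and the build mm10. The annotation, the use of strand and of molecular identifiers are not given in the sources used here, so a count is not known to be 1 molecule and intervals from counts cover counting error only. Libraries held 1519340 to 2452467 counts, which makes genes with few counts imprecise. The table lists 10616 genes, each with at least 6 counts in some library.

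Groups came from the source name in the labels. All genes were fitted together in DESeq2 1.42.0 (R 4.3.3), using its default size factors. Group was tested by the likelihood ratio against an intercept, with Benjamini-Hochberg adjustment over 9997 genes. This test and its thresholds (adjusted p under 0.1, absolute log2 fold change over 0.5, base mean over 5) follow the study's methods. Normalized counts are counts over size factors, fold changes were not shrunken, and 95% intervals are from the SE. The scripts were tested on simulated data of this comparison with 10616 genes, and recovered 55% of genes changed by 1 and 99% of those changed by 2 on the log2 scale. Alternatives were edgeR 4.0.16, the Wald test, other size factors, filters and thresholds, and each library left out in turn. Replicate pairs within a group differed beyond counting noise, with a chi-square per degree of freedom of at least 4.65.

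The members and lists were chosen with earlier results of these data known. Named were Brca2, the 8 factors, in each other list the called genes (at most 6) or, with none called, the 2 with the smallest p among those with a base mean over 5, and the 3 genes nearest to each factor that had at least 10 counts in every library and a log2 range of at least 1. Only Sox9 met the last rule. Other named genes were chosen after their values were seen. Gene positions and promoter sequences are from RefSeq on GRCm38.p6, a patch release of the assembly behind mm10, and overlapping genes are from GENCODE vM39. Some genes are not reported here and were left out of the lists and their counts, while the fit across all genes kept every row.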

Additional observations from a re-analysis of the deposited data

How the results depend on the processing

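No paired analysis was possible because replicate numbers are absent from the labels. The numbers used here were assigned within each group in the order of the library titles, so equal numbers do not mark pairs. With all 6 libraries, the number of genes called stayed within 1.5 times of 127 under every alternative, and 1 factor, Sox9, was called in each. Leaving out 1 library at a time gave 47 to 140 called genes and 0 to 1 called factors. The fewest genes were called without KPC-shBrca2 replicate 3 (47), KPC-shControl replicate 2 (55) and KPC-shBrca2 replicate 1 (81). The most, 140 with 98 of them higher, were called without KPC-shControl replicate 1. Of the other lists 2 to 9 genes were called, against 4 with all 6 libraries. The 9 came without KPC-shControl replicate 1, where Hhex, Foxf2, Vsig1, Spp1 and Cdh17 gained a call. The 2 came without KPC-shBrca2 replicate 1, KPC-shBrca2 replicate 3 or KPC-shControl replicate 2. Over the same 6 fits Brca2 ranged from -1.70 to -1.46 on the log2 scale and lost its call in 3, without KPC-shBrca2 replicate 2 or 3 or KPC-shControl replicate 2 (adjusted p 0.152, 0.233 and 0.371 by DESeq2). Brca2 had no adjusted p with TMM factors and none with the filter of 10 counts in 3 libraries. For the 8 factors, of 90 values recomputed under an alternative 79 stayed on the same side in direction and call, 4 lost the call, all for Sox9, and 7 reversed. The reversals were of factors that were not called, when 1 library was left out: Gata6 ranged from -0.14 to 0.052, Foxa1 from -0.31 to 1.18 and Klf5 from -0.19 to 0.082 (log2 fold changes), and the cause was not tested. Depth limits Ehf most, which had an adjusted p (0.951 by DESeq2) only with no filter on low means.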

Other observations

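Mesenchymal transcription factors, which are usually low in epithelia, were present beside the gut and duct factors. Of 14 such factors 7 were in the table, with a median log2 fold change of 0.46, 5 above 0 and 2 below. DESeq2 and edgeR called 0 of them, beside 1.27% and 1.33% of the genes each tested. An unadjusted p under 0.05 was found for 2, beside 8.66% of the genes tested. Prrx2, a homeobox factor of mesenchyme, had 565, 626 and 545 normalized counts in KPC-shBrca2 and 494, 465 and 445 in KPC-shControl (log2 fold change 0.31 ± 0.15 SE, adjusted p = 0.555 by DESeq2). Foxf2, a forkhead factor of gut mesenchyme, had 234, 216 and 225 against 181, 142 and 118, with a log2 fold change of 0.62 ± 0.21 (SE), for which DESeq2 gave an adjusted p of 0.161. Both had groups that did not overlap, with KPC-shBrca2 above, which held for 3 of the 7 factors and for 10.2% of the genes tested. Twist1 was lower in KPC-shBrca2 without overlap (log2 fold change -0.64, adjusted p = 0.863 by DESeq2). DESeq2 called Foxf2 when KPC-shControl replicate 1 was left out.

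Stomach and mucous genes, which mark the classical tumor type together with Gata6, gave 9 of 16 in the table and a median log2 fold change of 0.06. DESeq2 and edgeR called 0 of them, beside 1.27% and 1.33% of the genes each tested. An unadjusted p under 0.05 was found for 3, beside 8.66% of the genes tested. Tff1, a secreted trefoil peptide of stomach mucus, had 8088, 8268 and 8412 normalized counts in KPC-shBrca2 and 12523, 9869 and 9581 in KPC-shControl, a log2 fold change of -0.37 ± 0.14 (SE), for which DESeq2 gave an adjusted p of 0.307. Vsig1, a stomach adhesion protein, had 454, 439 and 485 against 408, 324 and 174, a log2 fold change of 0.60 ± 0.24 (SE), for which DESeq2 gave an adjusted p of 0.322. The groups did not overlap for either gene, with Tff1 lower and Vsig1 higher in KPC-shBrca2, beside 20.6% of the genes tested in either direction. Ctse, the last of the 3, had a log2 fold change of -0.39 ± 0.19 (SE), an adjusted p of 0.555 by DESeq2 and overlapping groups. DESeq2 called Vsig1 when KPC-shControl replicate 1 was left out and Tspan8 when KPC-shControl replicate 3 was.

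Klf10, named after its values were seen, ran like Foxa1 in 1 respect, with 8.90 normalized counts in KPC-shControl replicate 3 and 36.9 to 83.9 in the other 5 libraries.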
